A study of Mus musculus with 18 samples.

Results

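The genes that set the pace of the G1 phase were followed in mouse embryonic fibroblasts (MEFs): the cyclin-dependent kinase (CDK) inhibitors Cdkn2a, Cdkn2b, Cdkn2c, Cdkn2d, Cdkn1a and Cdkn1b, and the D-type cyclins Ccnd1, Ccnd2 and Ccnd3. These 9 members were listed by name, and 8 of them were found among the 55401 genes of the count table by their Ensembl identifier. The identifier that the reference gives for Cdkn2d had no row, so Cdkn2d was not analysed here. The missing row says nothing about its level. The libraries came from poly(A) RNA of 18 cultures in 6 groups of 3. In the S6K1 series, wild-type (WT) MEFs carried an empty retroviral vector (EV) or a vector for constitutive expression of an oncogenic HRAS (RAS), and S6K1 knockout (KO) MEFs carried RAS. The other series, called S6K1/S6K2, held WT MEFs with EV or RAS and cells lacking both kinases (double knockout, DKO) with RAS. The kinases are those of ribosomal protein S6, with the genes Rps6kb1 (S6K1) and Rps6kb2 (S6K2). KO or DKO cells with EV were not analysed here, so the effect of loss was measured only in the presence of RAS.

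Per the methods of the study, MEFs were grown from mid-gestation embryos, S6K1 KO and WT embryos had the same mothers, and the WT controls of the DKO cells came from other, WT mothers. Virus was added to whole cultures that were then selected with puromycin, so each library is a mixed population and not a clone. The methods name pBABEpuro with EV and MSCV-neo with RAS. EV and RAS cultures may thus differ in vector too, which cannot be told apart from RAS. Total counts per library lay between 8319445 and 14402442, and the lowest count of any measured member in any library was 62 (Cdkn2c). Levels are CPM, the counts scaled to a common library total, after TMM scaling (trimmed means) within each series. Each test is edgeR's two-sided quasi-likelihood test over all genes of a series, with Benjamini-Hochberg adjustment, and a call is an adjusted p under 0.05. The targeted genes followed the labels. Rps6kb1 was at 23.6 to 37.0 CPM in KO RAS and 61.6 to 74.6 CPM in WT RAS, with an adjusted p of 0.234 that became 0.000101 with the replicate number as a block. In DKO RAS, Rps6kb1 was at 34.5 to 39.7 CPM against 75.5 to 83.7 CPM in WT RAS. Rps6kb2 was at 2.68 to 3.04 CPM in DKO RAS and 24.1 to 28.9 CPM in WT RAS. Hras was at 90.3 to 141 CPM in the 12 RAS cultures and at 50.8 to 72.7 CPM in the 6 EV cultures.

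D-type cyclins bind CDK4 and CDK6, and the active kinases phosphorylate the retinoblastoma protein and so release E2F factors that switch on genes of DNA replication. The INK4 inhibitors, encoded by Cdkn2a to Cdkn2d, bind CDK4 and CDK6 and keep D-type cyclins off them, whereas the CIP/KIP inhibitors p21 (Cdkn1a) and p27 (Cdkn1b) bind complexes of cyclin and CDK and restrain CDK2. In primary fibroblasts oncogenic RAS leads to senescence, a durable stop of division in which the Cdkn2a products p16Ink4a and p19Arf are known to take part. The question put to the data was how RAS, and the loss of S6K1 or of both kinases under RAS, changed the transcripts of this circuit.

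Positions are from RefSeq (GRCm38.p6), and the count table holds the members as ENSMUSG00000044303.6 (Cdkn2a), ENSMUSG00000073802.5 (Cdkn2b), ENSMUSG00000028551.14 (Cdkn2c), ENSMUSG00000023067.14 (Cdkn1a), ENSMUSG00000003031.14 (Cdkn1b), ENSMUSG00000070348.5 (Ccnd1), ENSMUSG00000000184.12 (Ccnd2) and ENSMUSG00000034165.16 (Ccnd3). Cdkn2a (chr4:89274473-89294619) and Cdkn2b (chr4:89306289-89311032) are neighbours on the minus strand of chromosome 4, and Cdkn2c (chr4:109660876-109666756) lies on the same chromosome and strand. Cdkn1a (chr17:29090979-29100722) and Ccnd3 (chr17:47505051-47599689) lie on the plus strand of chromosome 17. Cdkn1b (chr6:134920401-134925525, plus strand) and Ccnd2 (chr6:127125162-127152188, minus strand) share chromosome 6, and Ccnd1 (chr7:144929931-144939831) is on the minus strand of chromosome 7. Cdkn2a has a pair of start sites, the upstream one for the transcript of p19Arf and the downstream one for that of p16Ink4a. The counts are summed per gene, so these transcripts could not be separated.

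Promoters were given for 7 of the 9 members (all but Ccnd1 and Ccnd2), with 11 start sites in all. Those of the chromosome 4 neighbours that rose together with RAS, and of Cdkn1b, which fell, are shown because the account of RAS turns on these genes. Each runs 5′ to 3′ on the gene's strand from 250 bases before to 50 bases after the start, in GRCm38.p6 from RefSeq. Capitals mark every match, on either strand, to the motifs searched.
Cdkn2a, upstream start (chr4:89294570-89294869, minus strand): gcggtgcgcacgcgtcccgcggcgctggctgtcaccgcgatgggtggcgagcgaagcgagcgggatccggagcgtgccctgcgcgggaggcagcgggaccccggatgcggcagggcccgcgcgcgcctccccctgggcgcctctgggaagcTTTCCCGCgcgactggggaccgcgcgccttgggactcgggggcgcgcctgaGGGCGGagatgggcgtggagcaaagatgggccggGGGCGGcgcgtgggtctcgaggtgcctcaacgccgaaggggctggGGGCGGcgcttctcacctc
Cdkn2a, downstream start (chr4:89282143-89282442, minus strand): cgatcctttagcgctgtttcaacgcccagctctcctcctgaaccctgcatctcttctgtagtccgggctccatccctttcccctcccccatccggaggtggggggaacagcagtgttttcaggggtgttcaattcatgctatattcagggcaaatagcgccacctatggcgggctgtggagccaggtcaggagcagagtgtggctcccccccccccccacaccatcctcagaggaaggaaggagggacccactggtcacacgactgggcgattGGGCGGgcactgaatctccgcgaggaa
Cdkn2b (chr4:89310983-89311282, minus strand): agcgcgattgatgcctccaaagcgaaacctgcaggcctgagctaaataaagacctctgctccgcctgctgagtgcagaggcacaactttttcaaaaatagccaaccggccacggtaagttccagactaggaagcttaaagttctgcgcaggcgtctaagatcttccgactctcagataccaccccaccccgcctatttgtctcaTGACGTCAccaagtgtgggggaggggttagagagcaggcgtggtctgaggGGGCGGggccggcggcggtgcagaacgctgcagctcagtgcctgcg
Cdkn1b (chr6:134920151-134920450, plus strand): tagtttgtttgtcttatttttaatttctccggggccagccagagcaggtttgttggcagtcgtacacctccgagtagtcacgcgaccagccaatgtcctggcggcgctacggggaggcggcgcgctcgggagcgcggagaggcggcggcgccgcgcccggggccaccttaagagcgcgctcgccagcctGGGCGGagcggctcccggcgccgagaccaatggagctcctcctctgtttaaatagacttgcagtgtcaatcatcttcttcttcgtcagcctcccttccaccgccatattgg

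The motifs searched were AP-1 (TGANTCA), the cAMP response element (TGACGTCA), E2F (TTTGGCGC and TTTCCCGC), Sp1 (GGGCGG) and the E-box (CACGTG). Cdkn2b held TGACGTCA 46 bases before its start, a string found in 1.79% of the 32851 promoters of the table. The upstream Cdkn2a promoter held TTTCCCGC 99 bases before its start, found in 1.07% of all promoters, and 3 copies of GGGCGG. Cdkn1b and the downstream Cdkn2a promoter held only 1 GGGCGG each, a string present in 35.7% of promoters. None of the 11 promoters searched held TGANTCA (7.81% of promoters) or TTTGGCGC (0.514%), and CACGTG (7.15%) was found only at the downstream Cdkn2c start. These are matches of letters and not sites shown to be bound.

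Levels were first compared between members per kilobase of merged exons, in WT EV cells. In the S6K1 series, Ccnd2 had 275 ± 24.5 and Cdkn1a 256 ± 17.3 CPM per kb (mean ± SD, n = 3, as in the following values), the highest levels of the 8 members. The difference between these neighbours was within their spread. Ccnd1 (110 ± 9.61) and Cdkn2a (108 ± 16.9 CPM per kb) came next and did not differ beyond their spread. Ccnd3 had 71.2 ± 9.06, Cdkn2b 50.1 ± 8.98, Cdkn1b 10.6 ± 1.78 and Cdkn2c 4.81 ± 0.527 CPM per kb. Of the summed counts per kb of the CIP/KIP members Cdkn1a and Cdkn1b, Cdkn1a thus gave 96.0%. Cdkn1c of the same family was left out of this share. It had 105.5 CPM, against 48.03 CPM for Cdkn1b, neither scaled per kb. In the S6K1/S6K2 series, WT EV cells had Cdkn1a at 229 ± 89.9, Ccnd2 at 201 ± 73.8, Ccnd1 at 106 ± 23.8, Cdkn2a at 101 ± 29.1, Ccnd3 at 90.5 ± 5.24, Cdkn2b at 46.5 ± 17.1, Cdkn1b at 20.3 ± 7.42 and Cdkn2c at 13.5 ± 7.03 CPM per kb.

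For Cdkn1a, Cdkn1b, Cdkn2b, Cdkn2c and Ccnd2, this WT EV group had the largest SD in CPM of the 6 groups. Cdkn2c was at 53.6, 39.2 and 16.2 CPM in replicates 1, 2 and 3, and Cdkn1b at 115, 109 and 53.5 CPM. Replicate 3 was thus the lowest for both and nearer to the WT EV cultures of the S6K1 series, which had 11.4 to 14.2 CPM of Cdkn2c and 39.0 to 54.6 CPM of Cdkn1b. The other direction was seen for Cdkn1a, at 308, 508 and 708 CPM, Ccnd2, at 784, 1051 and 1609 CPM, Cdkn2a, at 86.2, 113 and 154 CPM, and Cdkn2b, at 41.0, 64.7 and 88.6 CPM in replicates 1, 2 and 3. Replicate 1 also stood out for Cdkn1c, another CIP/KIP gene that is no member, with 380 CPM against 64.7 and 45.0 CPM in replicates 2 and 3. Summed over 35 genes of S phase and mitosis, the 3 cultures had 1235, 2204 and 1350 CPM.

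**Figure D1:**
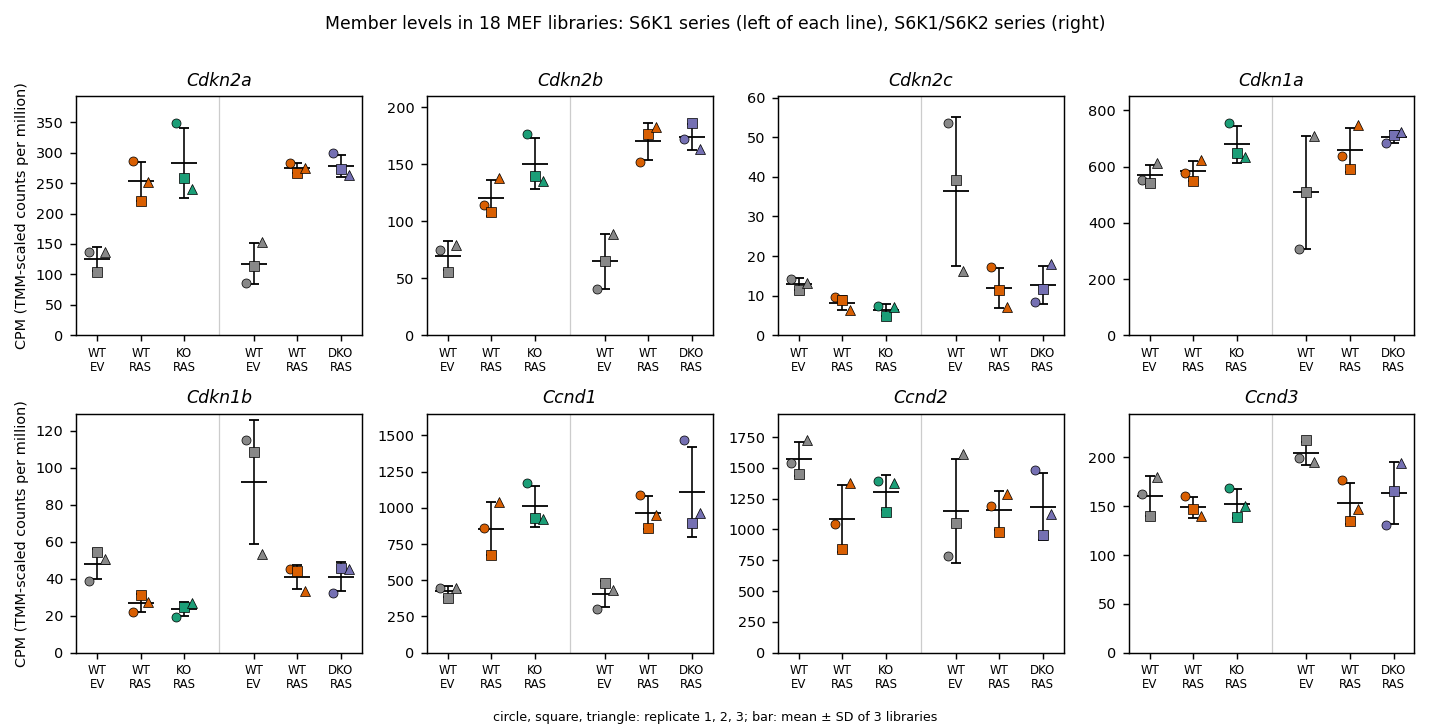
CPM of the 8 measured members in each of the 18 libraries, with the mean ± SD of 3 libraries per group; each panel has its own axis from 0. Cdkn2a, Cdkn2b and Ccnd1 are higher in every RAS library than in every EV library of the same series, and Cdkn1b is lower; WT EV of the S6K1/S6K2 series is the widest group for Cdkn2c (16.2 to 53.6 CPM) and Cdkn1a (308 to 708 CPM).

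The cell types were read from marker lists. All 15 fibroblast markers were above 3 counts in every library, with a summed level of 46980 to 58320 CPM in EV and 25310 to 38130 CPM in RAS cultures. The summed level of 6 epithelial markers was 1.33 to 10.2 CPM in EV and 58.7 to 167 CPM in RAS cultures. Krt18 alone reached 159 CPM, while Epcam and Cdh1, which define epithelium, stayed at or below 1.72 and 1.31 CPM. Endothelial markers summed to 13.7 to 36.3, muscle markers to 6.38 to 28.2 and neural markers to 7.60 to 38.8 CPM. The part of these shifts in the RAS effects on the members was not tested.

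With RAS, WT MEFs raised Cdkn2a, Cdkn2b and Ccnd1 and lowered Cdkn1b in both series. In the S6K1 series 4 of the 8 members were called, 3 higher and 1 lower, where 13.2% of the 14036 genes tested were called (7.15% higher and 6.09% lower). In the S6K1/S6K2 series 5 of 8 were called, the same 4 and Cdkn2c, where 26.3% of 13881 genes were called (13.5% higher and 12.7% lower). The EV and RAS libraries did not overlap for 6 of 8 members in the S6K1 series, against 30.9% of genes, and for 5 of 8 in the S6K1/S6K2 series, against 42.5%. The block gave 6 of 8 members (36.2% of genes) in the S6K1 series and 5 of 8 (28.7%) in the other. In bulk RNA, fewer cells with a transcript and less of it per cell cannot be told apart.

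Cdkn2a, whose products act on CDK4/6 and on p53, rose with RAS in both series. In the S6K1 series it went from 138, 103 and 137 CPM in the WT EV cultures to 286, 221 and 251 CPM in WT RAS, where the lowest RAS culture was above the highest EV culture. The log2 fold change was 1.00 (SE 0.18, adjusted p 0.00652). For the S6K1/S6K2 series, the EV cultures had 86.2, 113 and 154 CPM and the RAS cultures 283, 267 and 275 CPM, without overlap and with less spread among the RAS cultures. The log2 fold change was 1.23 (SE 0.19, adjusted p 0.00184). The call was kept in every alternative run, among them DESeq2, other scalings and filters, the block and each library left out.

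Cdkn2b, which encodes p15, an INK4 inhibitor known to respond to growth-inhibitory cytokines, rose with its neighbour. Its levels in the S6K1 series were 74.5, 55.7 and 79.3 CPM in WT EV and 114, 108 and 138 CPM in WT RAS. These groups did not overlap, and the log2 fold change was 0.78 (SE 0.17, adjusted p 0.0163). The S6K1/S6K2 series had 41.0, 64.7 and 88.6 CPM in WT EV and 152, 176 and 182 CPM in WT RAS, also without overlap (log2 fold change 1.39, SE 0.23, adjusted p 0.0028). The larger fold in the second series was not called as a difference between series (0.60, 95% interval -0.05 to 1.24, adjusted p 0.421). In this and the other comparisons between series, series and batch cannot be told apart. The ratio of Cdkn2a to Cdkn2b counts per kb lay between 1.75 and 2.98 in all 18 libraries.

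Cdkn2c, which encodes p18, was the lowest of the measured inhibitors per kb and fell in the S6K1/S6K2 series. Its S6K1 series levels were 14.2, 11.4 and 13.2 CPM in WT EV and 9.56, 8.88 and 6.27 CPM in WT RAS. The groups did not overlap, but the log2 fold change of -0.65 (SE 0.23) had an adjusted p of 0.0986, and 0.0201 with the replicate block. Of the S6K1/S6K2 cultures, EV had 53.6, 39.2 and 16.2 CPM and RAS 17.3, 11.3 and 7.13 CPM, so EV replicate 3 fell within the RAS range. The log2 fold change was -1.61 (SE 0.46, adjusted p 0.0297), a call that was lost without WT EV replicate 1 (-1.22, adjusted p 0.0823) or 2 (-1.55, adjusted p 0.0767), without WT RAS replicate 2 (-1.57, adjusted p 0.0938) or 3 (-1.34, adjusted p 0.103), and with the 6 compared libraries alone (-1.59, adjusted p 0.0506). The effects of the series were not called as different (-0.97, 95% interval -2.15 to 0.20, adjusted p 0.467).

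Counts of Cdkn2a sum the transcripts of p16Ink4a and p19Arf, so a share of this gene is not that of p16Ink4a alone. Among the transcripts of the measured INK4 genes, which leave out Cdkn2d, Cdkn2a made up most of the pool throughout. It gave 66.3 ± 0.676% of the counts per kb of Cdkn2a, Cdkn2b and Cdkn2c in WT EV and 70.7 ± 3.13% in WT RAS of the S6K1 series, and 62.2 ± 2.85% and 65.1 ± 2.33% in the S6K1/S6K2 series. Cdkn2c went from 2.98 ± 0.233% to 1.01 ± 0.25% in the first series and from 9.49 ± 6.62% to 1.23 ± 0.543% in the second. Its share of 16.2% in WT EV replicate 1 of the S6K1/S6K2 series was the highest of the 18 libraries. These shares depend on the exon length used for each gene: with the longest transcript of each in place of merged exons, Cdkn2a had 71.0% in WT EV and 75.1% in WT RAS of the S6K1 series.

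Cdkn1a, encoding p21 and a known target of p53, was not called with RAS. The S6K1 series had 551, 542 and 613 CPM in WT EV and 579, 550 and 624 CPM in WT RAS, groups that overlapped almost fully (log2 fold change 0.04, 95% interval -0.22 to 0.30, adjusted p 0.869). The S6K1/S6K2 series had 308, 508 and 708 CPM in WT EV and 637, 592 and 747 CPM in WT RAS (0.37, 95% interval -0.19 to 0.94, adjusted p 0.298). Here EV replicate 3 stood within the RAS range, and without it the log2 fold change was 0.70 with an adjusted p of 0.0361.

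Cdkn1b, encoding p27, an inhibitor known to accumulate in resting cells, fell with RAS. The WT EV cultures of the S6K1 series had 39.0, 54.6 and 50.6 CPM and the WT RAS cultures 21.8, 31.2 and 27.6 CPM, all below the lowest EV culture. The log2 fold change was -0.84 (SE 0.19, adjusted p 0.0201), and the call was lost without WT EV replicate 2 (-0.73, adjusted p 0.0778), WT EV replicate 3 (-0.80, adjusted p 0.0617) or WT RAS replicate 1 (-0.71, adjusted p 0.0694). Levels in the S6K1/S6K2 series were 115, 109 and 53.5 CPM in WT EV and 45.4, 44.2 and 33.4 CPM in WT RAS, again without overlap. The log2 fold change was -1.17 (SE 0.28, adjusted p 0.013), and without WT RAS replicate 3 it was -1.04 with an adjusted p of 0.0555. The ratio of Cdkn1a to Cdkn1b counts per kb was 20.4 to 29.0 in WT EV and 36.1 to 54.4 in WT RAS of the S6K1 series, and in the S6K1/S6K2 series 5.49, 9.58 and 27.1 in EV and 28.7, 27.4 and 45.9 in RAS. No test was run on this ratio, which joins a gene that fell to one that was not called.

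Ccnd1, the cyclin best known as a target of mitogen signalling, rose with RAS about as much as Cdkn2a. The S6K1 series had 443, 380 and 445 CPM in WT EV and 860, 672 and 1037 CPM in WT RAS, without overlap (log2 fold change 1.02, SE 0.18, adjusted p 0.00538). The EV cultures of the S6K1/S6K2 series had 304, 480 and 434 CPM and the RAS cultures 1085, 864 and 953 CPM, each more than any EV culture (1.25, SE 0.23, adjusted p 0.00463). Both calls were kept in every alternative run. In the NCBIM37 annotation Ccnd1 overlaps Oraov1 on the other strand, which had group means of 18.3 to 20.7 CPM and no call in any comparison.

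Ccnd2, the most abundant D-type cyclin in EV cells, did not follow Ccnd1. WT EV of the S6K1 series had 1536, 1451 and 1723 CPM and WT RAS 1041, 842 and 1378 CPM, each below the lowest EV culture. The log2 fold change of -0.53 (SE 0.19) had an adjusted p of 0.0967, which was 0.00356 with the replicate block, 0.0483 in DESeq2 and 0.0202 without WT RAS replicate 3 (log2 fold change -0.74). The S6K1/S6K2 series had 784, 1051 and 1609 CPM in EV and 1194, 978 and 1291 CPM in RAS, which fell inside the EV range (0.01, 95% interval -0.59 to 0.60, adjusted p 0.988). The difference between series was 0.53 (95% interval -0.19 to 1.25, adjusted p 0.508).

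Ccnd3 was not called in either series. Its levels were 162, 140 and 180 CPM in WT EV and 160, 147 and 139.5 CPM in WT RAS of the S6K1 series, which overlapped (log2 fold change -0.11, 95% interval -0.40 to 0.18, adjusted p 0.644). The S6K1/S6K2 series had 199, 217 and 195 CPM in WT EV and 177, 135 and 147 CPM in WT RAS. There every RAS culture was below every EV culture, but the log2 fold change of -0.42 (SE 0.16) had an adjusted p of 0.0851, and of 0.0441 with all 18 libraries in the fit. Ccnd3 overlaps Bysl on the other strand, which was not called in either series, and Ccnd2 overlaps 9330179D12Rik, which had no row.

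**Figure D2:**
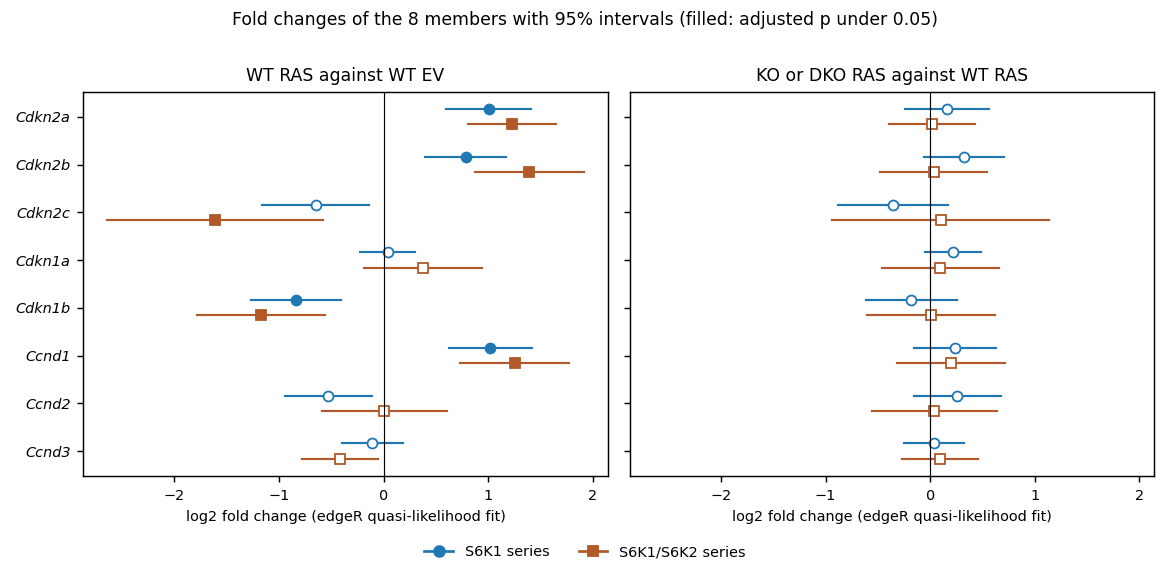
log2 fold changes of the 8 measured members with 95% intervals in each series, for WT RAS against WT EV (left) and KO or DKO RAS against WT RAS (right), on one axis; filled points have an adjusted p under 0.05 in edgeR. Filled points lie on the left only (4 in the S6K1 series and 5 in the S6K1/S6K2 series), and all intervals on the right include 0.

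The shares of Ccnd1 and Ccnd2 in the D-type cyclin pool differed between WT EV and WT RAS cells, and are given as a description with no test of their own. Ccnd1 held 24.2 ± 1.05% of the counts per kb of the 3 cyclins in WT EV of the S6K1 series and 46.4 ± 1.07% in WT RAS, and Ccnd2 went from 60.3 ± 1.19% to 39.5 ± 2.31%. The Ccnd3 share was 15.6 ± 0.599% in WT EV, inside the range of WT RAS (14.2 ± 3.08%). In the S6K1/S6K2 series Ccnd1 went from 26.8 ± 3.74% to 48.3 ± 1.99%, Ccnd2 from 49.7 ± 7.68% to 38.7 ± 2.81% and Ccnd3 from 23.6 ± 5.49% to 13.0 ± 0.848%. The ratio of Ccnd1 to Ccnd2 per kb was 0.429, 0.390 and 0.384 in WT EV and 1.23, 1.19 and 1.12 in WT RAS of the S6K1 series. It was 0.576, 0.678 and 0.401 in WT EV and 1.35, 1.31 and 1.097 in WT RAS of the S6K1/S6K2 series. Ccnd2 was thus ahead per kb in all 6 EV libraries and Ccnd1 in all 6 WT RAS libraries, on exon lengths from the NCBIM37 annotation. Ccnd1 rose with RAS in both series. Ccnd2 was lower in the S6K1 series, without a call in the main fit and with a call in the block fit (edgeR, adjusted p 0.00356).

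**Figure D3:**
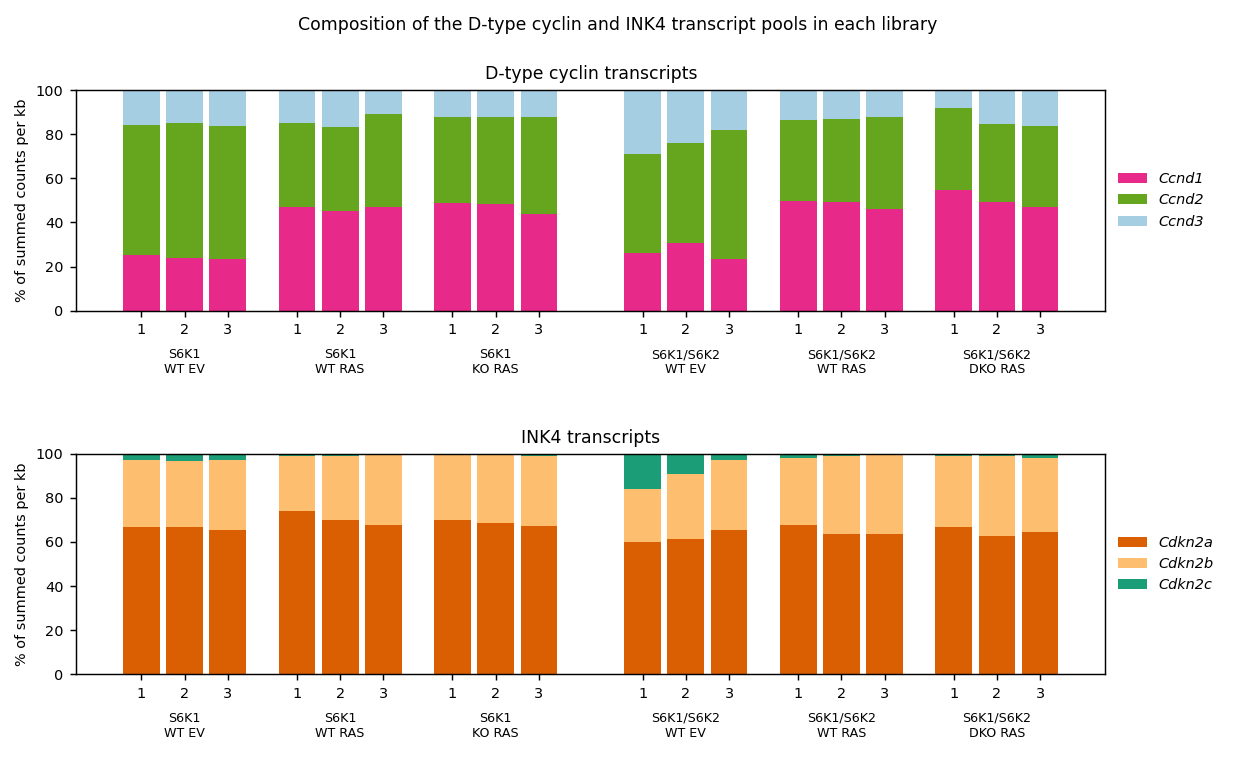
Share of each gene in the summed counts per kb of the D-type cyclins (top) and of the 3 measured INK4 genes (bottom), in percent, 1 bar per library with its replicate number. Ccnd1 takes 23.3 to 30.8% of the cyclin pool in EV libraries and 43.9 to 54.6% in RAS libraries; Cdkn2c is visible mainly in WT EV replicates 1 and 2 of the S6K1/S6K2 series.

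With loss of S6K1 or of both kinases, cells under RAS kept levels of all 8 members that could not be told from WT RAS by the test. None of the 8 members was called in either series by edgeR, where 0.00712% of genes were called with S6K1 loss and 0.0216% with loss of both. DESeq2 also called 0 members in both, where it called 96 genes in all with S6K1 loss and 10 with loss of both. The fit with the block called 0 members too (4.15% of genes with S6K1 loss and 0.0576% with loss of both). At an unadjusted p under 0.05 there were 0 members in either comparison, against 6.86% and 1.29% of genes. KO RAS and WT RAS libraries were apart for 1 of 8 members (8.02% of genes) and DKO RAS and WT RAS libraries for 0 of 8 (6.07%).

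Values with S6K1 loss were as follows. Cdkn2a had 349, 259 and 241 CPM in KO RAS, a range that overlapped that of WT RAS (log2 fold change 0.16, 95% interval -0.24 to 0.57). Cdkn2b had 176, 140 and 135 CPM in KO RAS against 114, 108 and 138 CPM in WT RAS (0.32, 95% interval -0.06 to 0.71, adjusted p 0.863). Cdkn1a was the member without overlap, at 755, 647 and 636 CPM against 579, 550 and 624 CPM (0.22, 95% interval -0.05 to 0.48, adjusted p 0.874). The lowest KO culture (636 CPM) was just above the highest WT culture (624 CPM). Libraries were apart for 8.02% of all genes in this comparison, so this is not read as a change of Cdkn1a. Ccnd1 had 1171, 931 and 925 CPM in KO RAS (0.24, 95% interval -0.16 to 0.63), and Ccnd2 1391, 1138 and 1377 CPM (0.26, 95% interval -0.16 to 0.68). Cdkn1b had 19.4, 24.8 and 27.0 CPM (-0.18, 95% interval -0.61 to 0.25), Cdkn2c 7.46, 4.75 and 7.17 CPM (-0.35, 95% interval -0.88 to 0.17) and Ccnd3 169, 139 and 151 CPM (0.04, 95% interval -0.26 to 0.33). Each interval includes 0 as well as changes up to its bounds, so KO and WT were not shown to be alike.

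With loss of both kinases the largest fitted difference was 0.20 (Ccnd1), against 0.35 in size (Cdkn2c) with loss of S6K1. Cdkn2a had 299, 273 and 263 CPM in DKO RAS and 283, 267 and 275 CPM in WT RAS (log2 fold change 0.02, 95% interval -0.40 to 0.43). Cdkn2b had 172, 186 and 163 CPM in DKO RAS (0.03, 95% interval -0.48 to 0.54). Cdkn1a had 683, 711 and 721 CPM (0.10, 95% interval -0.47 to 0.66) and Cdkn1b 32.1, 45.6 and 45.5 CPM (0.00, 95% interval -0.61 to 0.62). Cdkn2c, with 8.42, 11.7 and 18.1 CPM, had the widest interval (0.10, -0.94 to 1.14). Ccnd1 reached 1465 CPM in DKO RAS replicate 1, the highest of the 18 libraries, beside 895 and 965 CPM (0.20, 95% interval -0.32 to 0.71). Ccnd2 had 1482, 955 and 1122 CPM (0.04, 95% interval -0.56 to 0.64) and Ccnd3 130, 166 and 194 CPM (0.10, 95% interval -0.27 to 0.46), which overlapped with WT RAS. Between the series, 0 of 8 members differed in the effect of loss by edgeR (0.0069% of 14483 genes) and 0 of 8 in the effect of RAS (0% of genes). DESeq2 called 0 members in both, where it called 1 gene in all for loss and 142 for RAS. The differences in loss effect went from -0.27 (Cdkn2b) to 0.48 (Cdkn2c). At an unadjusted p under 0.05 there were 0 members in both, against 1.23% and 12.6% of genes.

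The cyclin pool in cells without the kinases overlapped that of WT RAS cells, with Ccnd1 at 47.0 ± 2.71% in KO RAS and 50.3 ± 3.86% in DKO RAS cells. For KO RAS, the ratio of Ccnd1 to Ccnd2 per kb was 1.25, 1.22 and 0.999, and for DKO RAS 1.47, 1.39 and 1.279. Macrophage markers were lower in most cultures without the kinases: the summed level of 14 markers was 242 to 842 CPM in KO RAS and 720 to 3665 CPM in WT RAS of the S6K1 series, and 73.0 to 231 CPM in DKO RAS and 175 to 1004 CPM in WT RAS of the other. Of these markers, 11 to 14 were above the floor of 3 counts in each library, Fcgr1 was at 0 in 1 library and Lyz1 in 4, and Csf1r had at least 1.32 CPM in all 18. Their part in the member levels was not tested.

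Against WT EV, where RAS and genotype both differ, the members called in KO RAS were 5 of 8 (18.1% of genes, 9.55% higher and 8.56% lower) and in DKO RAS 5 of 8 (25.7%, 13.1% higher and 12.6% lower). In both, Cdkn2a, Cdkn2b and Ccnd1 were higher and Cdkn1b and Cdkn2c lower. Both comparisons share their EV libraries with the RAS comparisons above. In KO RAS, Cdkn2a was higher by a log2 fold change of 1.17 (SE 0.18), Cdkn2b by 1.11 (SE 0.17) and Ccnd1 by 1.26 (SE 0.18), with adjusted p from 0.00167 to 0.00267. Cdkn1b had -1.02 (SE 0.19, adjusted p 0.00696) and Cdkn2c -1.003 (SE 0.23, adjusted p 0.0172). The Cdkn2c call was lost without KO RAS replicate 2 (-0.82, adjusted p 0.063) and with all 18 libraries in the fit (adjusted p 0.0948). With the replicate block Cdkn1a was called too (0.26, adjusted p 0.049), 6 of 8 members where 41.1% of genes were called. In DKO RAS, the log2 fold changes were 1.24 (SE 0.19) for Cdkn2a, 1.43 (SE 0.23) for Cdkn2b, 1.45 (SE 0.23) for Ccnd1, -1.17 (SE 0.27) for Cdkn1b and -1.51 (SE 0.46) for Cdkn2c. The Cdkn2c call (adjusted p 0.0371) was lost without WT EV replicate 1 (-1.12, adjusted p 0.104) or 2 (-1.46, adjusted p 0.0902), without DKO RAS replicate 1 (-1.28, adjusted p 0.121) or 2 (-1.45, adjusted p 0.112), and with the 6 compared libraries alone (adjusted p 0.0533). That of Cdkn1b (adjusted p 0.0134) was lost without DKO RAS replicate 1 (-1.02, adjusted p 0.0539), and Cdkn1a was called without WT EV replicate 3 (0.80, adjusted p 0.0236).

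The kinases and cyclins around the members were read next, from a list of 27 partners of the CDK4/6 axis. Here and in the other lists, which were chosen with results of these data known, counts stand beside the shares of all genes given above. With RAS 1 was called higher and 0 lower in the S6K1 series, where 13.2% of all genes were called. The median log2 fold change was -0.12 against 0.00 over all genes tested. In the S6K1/S6K2 series 1 was higher and 6 lower, where 26.3% of all genes were called, with a median of -0.43 against -0.02. In neither series was the share of the list above that of all genes. The block gave 3 higher and 3 lower in the first (36.2% of all genes) and 1 higher and 3 lower in the second (28.7%). Cdk4 was at 324 ± 45.0 CPM in WT EV and 278 ± 43.2 CPM in WT RAS of the S6K1 series (log2 fold change -0.22, adjusted p 0.49), and at 424 ± 102 and 264 ± 37.4 CPM in the other, where it fell (-0.68, SE 0.18, adjusted p 0.0212). Cdk6 had 77.8 ± 6.79 and 92.1 ± 7.02 CPM in the S6K1 series (0.24, adjusted p 0.197) and rose from 38.2 ± 9.90 to 70.3 ± 6.44 CPM in the second (0.88, SE 0.21, adjusted p 0.0136). Cdk2, the partner of cyclins E and A, fell in the latter (-0.38, SE 0.12, adjusted p 0.0429, and 0.0566 with the block), as did Ccne2 (-1.68, SE 0.38, adjusted p 0.0117) and Ccna2 (-1.64, SE 0.44, adjusted p 0.0222). Their values in the S6K1 series were -0.15, -0.68 and -0.53, with adjusted p of 0.467, 0.154 and 0.258. With the block, Cdk4 and Ccna2 had adjusted p of 0.0433 and 0.045 in the S6K1 series. Ccne1 had -0.34 and -0.45 (adjusted p 0.161, or 0.0255 with the block, and 0.176) in the 2 series, and Cdkn1c 0.08 and -1.14 (adjusted p 0.833 and 0.214), the latter with the outlying EV culture named above. Wee1, a kinase that restrains CDK1, was the gene that rose in the S6K1 series (0.56, SE 0.15, adjusted p 0.0411). In the S6K1/S6K2 series the 7 calls fell to 2 when WT EV replicate 2 or WT RAS replicate 2 was left out and to 0 for WT RAS replicate 3. In the S6K1 series the single call was lost without WT EV replicate 1, 2 or 3 or WT RAS replicate 1 or 3.

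Of 19 genes of the RB and E2F family, 1 was higher and 1 lower in the S6K1 series (median -0.15), where 13.2% of all genes were called. In the S6K1/S6K2 series 3 were higher and 2 lower (median -0.18), where 26.3% of all genes were called. These counts are near the shares of all genes. E2f8, a repressive E2F, had group means of 9.91 (EV) and 53.3 CPM (RAS) in the S6K1 series (2.42 on the log2 scale, SE 0.23, adjusted p 0.000304) and of 9.81 and 85.7 CPM in the other (3.13, SE 0.21, adjusted p 4.61e-05). Rb1 itself was at 32.8 ± 3.83 and 42.8 ± 9.01 CPM in the first (0.39, adjusted p 0.192, or 0.0153 with the block) and rose from 25.3 ± 7.89 to 63.0 ± 10.9 CPM in the second (1.31, SE 0.21, adjusted p 0.00213). E2f1 had 0.08 and 0.14 (adjusted p 0.684 and 0.435). Foxm1, a driver of mitotic genes, fell in the S6K1 series (-0.59, SE 0.14, adjusted p 0.0257), and E2f4 rose in the S6K1/S6K2 series (0.49, SE 0.12, adjusted p 0.0166), where Rbl1 (-0.89) and Mybl2 (-1.42), named because they complete the calls, fell. The block gave 3 higher and 2 lower in the S6K1 series and 3 higher and 3 lower in the other, where it called 36.2% and 28.7% of all genes. The 2 calls of the S6K1 series became 1 without WT EV replicate 2 or 3 or WT RAS replicate 2, and the 5 of the other series fell to 2 when WT EV replicate 2 was left out and to 3 for WT RAS replicate 2 or 3.

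Of 35 genes of S phase and mitosis, 0 were higher and 3 lower with RAS in the S6K1 series (median -0.39), where 6.09% of all genes were called lower. In the S6K1/S6K2 series 0 were higher and 20 lower (median -1.05), where 12.7% of all genes were called lower. All 35 had a fold change below 0 in the latter. Mki67 fell from 117 ± 30.9 to 52.8 ± 4.45 CPM (-1.15, SE 0.20, adjusted p 0.00548) and from 112 ± 56.3 to 45.0 ± 20.4 CPM (-1.32, SE 0.39, adjusted p 0.0335, and 0.0519 with the block). Pcna had -0.14 in the S6K1 series (adjusted p 0.796) and fell by 1.08 on the log2 scale in the other (SE 0.23, adjusted p 0.00913). Top2a (-0.60) and Kif11 (-0.93) were the other genes that fell in the S6K1 series, and Mcm2 (-1.05), Mcm3 (-1.63) and Mcm4 (-0.83) had the lowest adjusted p in the other. With the block the counts were 15 lower in the S6K1 series and 11 in the S6K1/S6K2 series. The block called 36.2% and 28.7% of all genes in either direction. The 20 calls of the S6K1/S6K2 series fell to 5 when WT EV replicate 2 was left out and to 4 for WT RAS replicate 2 or 3, and the 3 of the S6K1 series became 1 without WT EV replicate 2 or WT RAS replicate 2. Under RAS, S6K1 loss gave 34 of 35 fold changes below 0 (median -0.45 against 0.03 over all genes). There were 0 calls in edgeR and 2 lower with the block, which called 4.15% of all genes. With loss of both kinases 17 of 35 were below 0 (median 0.01). Pcna had -0.53 and 0.27 in these comparisons and Mki67 -0.47 and -0.10, all with adjusted p of 0.693 or more.

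Regulators of the Ink4/Arf locus, 30 genes that include Polycomb subunits and transcription factors, were read beside Cdkn2a and Cdkn2b. With RAS 2 were higher and 4 lower in the S6K1 series (3 and 10 with the block), with a median of -0.12. In the S6K1/S6K2 series 4 were higher and 8 lower (4 and 6 with the block), with a median of -0.17. Over all genes 13.2% and 26.3% were called, and 36.2% and 28.7% with the block. Hmga2, a chromatin protein known to repress the locus, rose in both, from 256 to 585 CPM (1.19, SE 0.13, adjusted p 0.000556) and from 229 to 798 CPM (1.80, SE 0.27, adjusted p 0.00159). Phc2, a Polycomb subunit, rose by 0.59 (SE 0.12, adjusted p 0.012) and 0.76 (SE 0.11, adjusted p 0.00124). Id3, an inhibitor of helix-loop-helix factors, fell in the S6K1 series (-0.86, SE 0.15, adjusted p 0.00491), as did, to complete the calls, Id4 (-2.41), Bach1 (-0.95) and the Polycomb gene Bmi1 (-0.53). Twist1 fell in the S6K1/S6K2 series (-0.98, SE 0.15, adjusted p 0.00161). The 12 calls of the S6K1/S6K2 series fell to 6 when WT RAS replicate 2 was left out and to 7 for replicate 3.

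In the p53 axis, to which p19Arf and Cdkn1a belong, 5 of 24 genes were higher and 0 lower in the S6K1 series (11 and 5 with the block). In the S6K1/S6K2 series 8 were higher and 3 lower (10 and 4 with the block). The shares called over all genes were 13.2% and 26.3% (36.2% and 28.7% with the block). Mdm2, the ligase that degrades p53 and itself a p53 target, rose from 276 ± 11.1 to 581 ± 92.7 CPM (1.07, SE 0.15, adjusted p 0.00184) and from 182 ± 90.0 to 715 ± 134 CPM (1.97, SE 0.31, adjusted p 0.00212). Perp rose by 2.13 (SE 0.50, adjusted p 0.0224) and 1.62 (SE 0.22, adjusted p 0.00121), and Plk3 by 1.44 (SE 0.28, adjusted p 0.0102) and 2.31 (SE 0.23, adjusted p 0.000228). Trp53 had 0.16 and -0.13 (adjusted p 0.593 and 0.528). Pmaip1 (0.69) and Tp53i11 (0.52) complete the calls of the S6K1 series. Cdkn1a, another p53 target, was not called in either series, and its difference from Mdm2 was not tested. The 5 calls of the S6K1 series became 2 or 3 without any 1 of 5 libraries, the exception being WT RAS replicate 2, and the 11 of the other series became 4 to 7 without WT EV replicate 1 or 2 or WT RAS replicate 2 or 3.

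A list of 20 genes tied to the control of D-type cyclins by growth signals held AP-1, ETS, Myc, STAT and beta-catenin factors. It also held Foxo1, Foxo3 and Gsk3b, known to restrain these cyclins. Of the list, 6 were higher and 1 lower in the S6K1 series (8 and 5 with the block), with a median of 0.04. In the S6K1/S6K2 series 8 were higher and 2 lower (7 and 2 with the block), with a median of 0.43. The calls over all genes were 13.2% and 26.3%, and 36.2% and 28.7% with the block. Fosl1, an AP-1 subunit, rose from 13.2 to 48.6 CPM (1.88, SE 0.32, adjusted p 0.00488) and from 8.87 to 49.6 CPM (2.48, SE 0.23, adjusted p 0.00018). The ETS factors Etv4 (1.96, SE 0.22, and 2.31, SE 0.27) and Etv5 (0.88, SE 0.14, and 0.64, SE 0.15) rose in both, with adjusted p from 0.000498 to 0.0146. The genes that fell, named after their values were seen, were Stat3 in both series (-0.71, adjusted p 0.00522, and -0.42, adjusted p 0.0381) and Foxo1 in the S6K1/S6K2 series (-0.74, adjusted p 0.0382). The 10 calls of the S6K1/S6K2 series fell to 5 when WT RAS replicate 2 was left out and to 6 for WT EV replicate 2 or WT RAS replicate 1. In the loss comparisons 0 genes of these 6 lists were called by edgeR in either series. With the block, S6K1 loss gave 1 higher and 2 lower among the 30 Ink4/Arf regulators and 1 higher among the 24 genes of the p53 axis. The block called 4.15% of all genes in this comparison, and the p53 count is near that share.

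**Figure D4:**
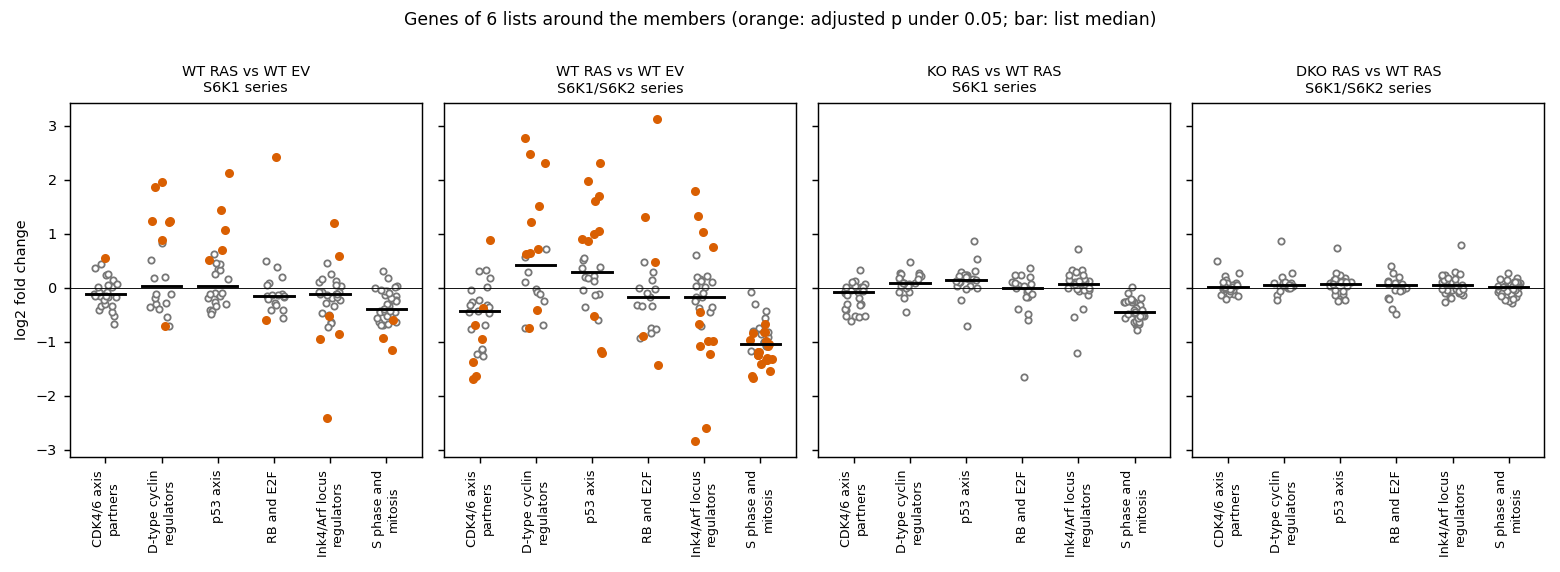
log2 fold changes of each gene of the 6 lists around the members in 4 comparisons; orange points have an adjusted p under 0.05 and bars are list medians. Most S phase and mitosis genes lie below 0 with RAS (medians -0.39 and -1.05) and, without a call, with S6K1 loss (median -0.45), and no point is orange in the loss comparisons.

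Across the 18 libraries, after the mean of each series was subtracted, log2 CPM of Cdkn2a correlated with that of Cdkn2b (Pearson r = 0.97), Ccnd1 (0.96) and Cdkn1b (-0.95). Ccnd2 had r between -0.24 and 0.52 with every other member, the highest with Cdkn1a. These values are descriptions: the libraries fall into EV and RAS groups, and libraries of one line share their cells. By the same measure over 9829 genes, the closest to Cdkn2a were Phlda1 (0.99) and Tm4sf1 (0.98), to Cdkn2b Prkg2 (0.99) and Bdnf (0.98), to Cdkn1b Bicc1 (0.97) and Gphn (0.97), and to Ccnd1 Aif1l (0.97) and 2010002N04Rik (0.96). Those closest to Cdkn1a were Hyal2 (0.95) and Ctsh (0.95), to Cdkn2c Acat1 (0.95) and Mfap4 (0.95), to Ccnd2 Tubb3 (0.87) and Tspan2 (0.87), and to Ccnd3 Selm (0.91) and Hdac8 (0.89).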

How the data were processed

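Poly(A) RNA of 18 MEF cultures was sequenced as stranded single-end libraries. The authors deposited raw read counts per gene, 1 column per library; their processing notes name CASAVA, STAR 2.7.1a, DESeq2 1.28.1 and mm10, whereas the methods of the study name TopHat, HTSeq and mm9, and 41.2% of the identifiers were not in the NCBIM37 annotation used here for exon lengths. Whether counting used the strand is not given in the sources used here.

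Counts were tested with edgeR 4.0.16 in R 4.3.3 (quasi-likelihood, TMM scaling, filterByExpr with a minimum count of 10, 9 libraries per series, group as the only term, Benjamini-Hochberg adjustment over 14036 or 13881 genes), and differences between series over all 18 libraries and 14483 genes. The steps were tested on simulated counts drawn independently for each library, which says nothing on how lines shared between libraries affect the tests. Levels per kb divide CPM by merged exon length. The SE was worked back from the edgeR test, as the size of the log2 fold change divided by the square root of its F statistic. The 95% intervals were built from this SE with the t distribution, so they are approximate, and they include the spread between libraries. Replicates are separate libraries, and p-values measure only the spread between them. By the sample titles, WT EV and WT RAS libraries of one number in a series carry the same WT label, so they are read as one line. S6K1 KO and WT embryos had the same mothers, but the titles do not say whether equal numbers mean littermates. The main test has no term for this pairing, which the block takes up. Library pairs of 1 group all differed by more than sampling noise. Same-numbered libraries deviated together in the S6K1 series (correlations 0.42 to 0.72) and between WT EV and WT RAS of the other series (0.29 to 0.37). Values with the number as a block are therefore given where they change the call of a member, and for the list counts with RAS. For DKO RAS with the WT groups the correlations were mixed (-0.13 to 0.47), above 0 for replicates 1 and 2 and below 0 for replicate 3.

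The members, the gene lists and the marker lists (fibroblast, macrophage, endothelial, epithelial, muscle, neural) were chosen with earlier results of these data known. Beside the members, the text names the targeted genes and Hras, a fixed set (Cdk4, Cdk6, Cdk2, Ccne1, Ccne2, Ccna2, Cdkn1c, Rb1, E2f1, Trp53, Mdm2, Mki67, Pcna), up to 3 genes per list with the lowest adjusted p under 0.05 and a mean of at least 100 counts, and the 2 genes most like each member; further genes are said to complete a small count and were chosen after their values were seen. Promoter sequences are from RefSeq (GRCm38.p6). The alternatives tried were DESeq2 1.42.0, other scalings and filters, other sets of libraries, the block and each library left out. Cdkn2d and the authors' own comparisons were not analysed here.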

Additional observations from a re-analysis of the deposited data

How the results depend on the processing

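Of 960 refits of a member in a comparison, 934 kept their call or stayed uncalled, 18 lost a call, 8 gained one and 0 reversed a call; the values are given beside the members. Leaving out 1 library gave 3 to 6 called members for RAS in the S6K1/S6K2 series (3 without WT RAS replicate 3) and 3 to 6 for DKO RAS against WT EV (3 without DKO RAS replicate 1), against 5 in each. For RAS in the S6K1 series the range was 3 to 5 around 4, with 5 in DESeq2 and 6 with the replicate block. DKO RAS libraries share only a number with the other groups, and the block there gave 4 called members against WT EV, with Cdkn2c at an adjusted p of 0.0693; it changed no other member's call than those named. Counts over all genes moved more. S6K1 loss called 1 gene by edgeR, 96 by DESeq2, 108 without a filter, 583 with the block, 0 in the 6 compared libraries and 4 in all 18, and 0 to 22 without 1 library. Loss of both kinases called 3, against 10 by DESeq2, 11 without a filter, 8 with the block, 7 in all 18 libraries, 2 with upper-quartile scaling or the stricter filter and 1 to 2 without 1 library. RAS called 1859 genes in the S6K1 series (2386 by DESeq2, 5085 with the block, 1043 to 1818 without 1 library) and 3646 in the other (2050 to 4199). Against WT EV, KO RAS called 2542 (5766 with the block, 1325 to 2139) and DKO RAS 3565 (1999 to 4044). The RAS effects of the series differed for 0 genes by edgeR, 142 by DESeq2, 204 without a filter, 58 with the block and up to 290 without 1 library. Over all alternatives, the genes called with RAS in the S6K1 series ranged from 0 to 6 for CDK4/6 partners, 1 to 5 for RB and E2F, 1 to 15 for S phase and mitosis, 4 to 13 for Ink4/Arf regulators, 2 to 16 for p53 and 5 to 13 for D-type cyclin regulators. In the S6K1/S6K2 series they ranged from 0 to 10, 2 to 8, 4 to 30, 6 to 13, 4 to 14 and 5 to 12. Cdkn2c, with as few as 62 counts, has the widest intervals of the members. The cause of these changes was not tested.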
